A study of Homo sapiens with 4 samples.

Results

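The genes of the replication-dependent histones were compared between cells depleted of ARID1A and control cells. They were taken as all genes whose symbol names a somatic or testis linker histone H1-1 to H1-6 or a numbered cluster gene of the H2A, H2B, H3 or H4 family, and that had at least 1 probe set paired with them alone. This gave 61 genes with 104 probe sets, of 18132 genes measured in all: 6 of H1, 15 of H2A, 18 of H2B, 10 of H3 and 12 of H4. RefSeq lists 69 genes that fit the rule. The other 8 (H2AC18, H2AC19, H3C13, H3C14, H3C15, H4C11, H4C14 and H4C15) had no probe set paired with them alone. Probe sets named for several genes, at least 1 of which fits the rule, numbered 9. In limma 0 of these passed the test, with a smallest adjusted p of 0.294. Each gene is described by its main probe set, the one with the highest mean over the arrays.

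OE33 is an established line from an adenocarcinoma of the human oesophagus. Cells grown with 15% serum were transfected 24 hours after plating with siRNA at 50 nM and harvested 48 hours later. The knockdown group received the ON-TARGETplus SMARTpool ARID1A, a mixture of siRNAs against the chromatin remodelling subunit ARID1A, and the mock group the ON-TARGETplus Non-targeting Pool. Each group had 2 biological replicates, so 4 Affymetrix PrimeView arrays were compared, and their number limits the precision of every value. The groups come from 1 cell line and 1 siRNA pool each, and the labels do not say how the replicates were kept apart, so the p-values measure only the spread between these samples.

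Replication-dependent histone genes are mostly short, intronless and gathered in clusters. They are transcribed in S phase, when new DNA must be packed into nucleosomes. Their mRNA typically ends in a stem-loop in place of a poly(A) tail. That stem-loop is bound by SLBP, and the end is cut with the help of the U7 snRNP. Some members, among them H2BC12, H2BC5, H2BC21 and H2AC6, are known to make polyadenylated transcripts as well, and replacement histones such as H3-3B and H2AZ1 make polyadenylated mRNA throughout the cell cycle. The samples were labelled from an oligo(dT) primer, per the labels' protocols, which copies from poly(A) tails and favours the 3′ end. The values therefore bear on those histone transcripts that such a primer reaches, and how much of each member's mRNA that is was not measured.

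ARID1A itself was at log2 levels of 7.53 and 7.53 after knockdown against 9.28 and 9.33 in mock. It fell 3.43-fold (log2 change -1.78, limma adjusted p = 0.0218). That call was lost with the replicate block (limma adjusted p = 0.217) and when any 1 array was left out (0.244 to 0.521), and the mean over all its probe sets changed by -1.07 (0.00471). Over all genes, 73 (0.403%) passed the limma test at an adjusted p under 0.05. The epithelial keratin and junction markers had levels from 9.06 to 14.57. The 13 fibroblast, leukocyte and endothelial markers had levels from 2.81 to 6.12, where 4 of them were lower at a nominal p under 0.05, 0 were higher (7.25% and 9.76% of all genes) and 0 passed the test; their part in the histone values was not tested. The 3′ minus 5′ signal of the beta-actin control was 1.21 and 1.10 after knockdown against 1.04 and 0.995 in mock. That of GAPDH overlapped, at 0.201 and 0.215 against 0.199 and 0.211. Of the poly-A spike-in controls, phe went the other way, at 2.49 and 2.27 against 2.69 and 2.55, and dap, lys and thr overlapped. The 3′ level of lys was 6.33 and 6.55 against 6.18 and 6.07, that of phe 6.85 and 6.88 against 6.83 and 6.83, and those of dap and thr overlapped. The beta-actin measure thus moved with the condition, that of GAPDH did not, and the part of these controls in the histone values was not tested.

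Most histone genes gave a weak signal. The main probe sets had a median log2 level of 4.60, from 3.08 (H4C13) to 13.4 (H4C3), whereas the median over all genes was 6.68. Only 6 of the 61 lay above that all-gene median: H4C3, H2BC12, H3C8, H4C12, H2BC5 and H2AC25. The 17 Tag control probe sets, whose probes are designed to match no transcript, had mean levels from 3.01 to 4.68. Of the histone genes 29 lay above all of these controls and 32 did not, against 74.8% of all genes above them. The testis histones H1-6, H2AC1 and H2BC1 were among the 32. Signals of different probe sets depend on their probes and do not rank the genes by amount of mRNA. RMA values compress the changes of weak probe sets.

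**Figure D1:**
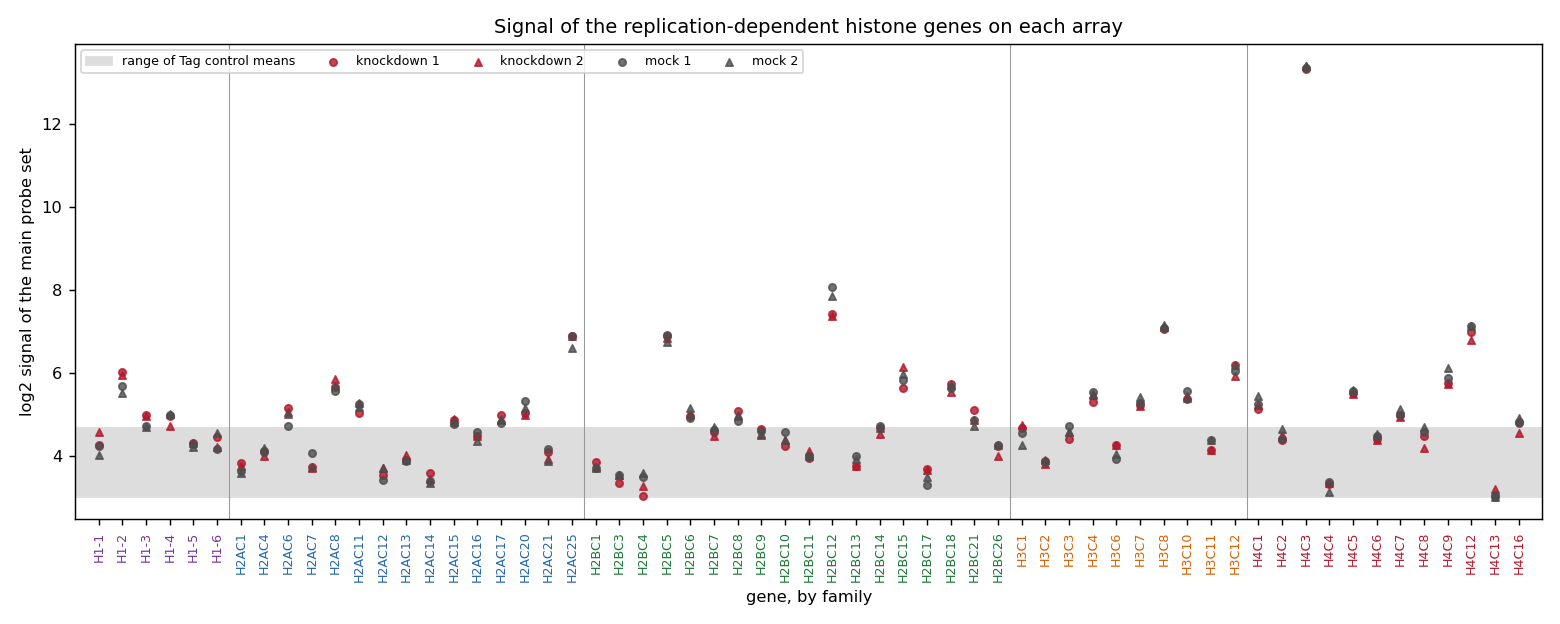
Log2 signal of the main probe set (vertical axis) of each of the 61 histone genes (horizontal axis, by family) on each of 4 arrays, with knockdown in red and mock in grey; the grey band spans the means of the 17 Tag controls, 3.01 to 4.68. H4C3 stands alone near 13.4, and for 32 genes the mean over the 4 arrays does not rise above the band, though single points can.

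No replication-dependent histone gene passed the test. In limma 0 of 61 did, against 0.403% of all genes, the smallest adjusted p being 0.0978 (H2BC12), and 0 of the 104 probe sets did. At a nominal, unadjusted p under 0.05 in limma 5 were higher (8.20%, against 9.76% of all genes) and 8 lower (13.1%, against 7.25%). With a prior variance that follows the signal level 1 gene passed, H2BC12 (adjusted p = 0.00726). That setting called 3209 probe sets over the whole array in place of 156. The knockdown arrays lay wholly above the mock arrays for 12 genes (19.7%, against 25.8% of all genes) and wholly below them for 18 (29.5%, against 23.6%). In either direction the groups were separate for 49.2% of the histone genes and for 49.4% of all genes, a share near the background. The median log2 change was -0.04, with 25 genes positive and 36 negative, and over all genes it was -0.0043 with 48.6% positive.

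The intervals bound the change in signal at these probe sets and not that of the mRNA. Among them are the intervals of the 32 genes not above every Tag control, and RMA compresses the changes of weak probe sets. All 61 had a 95% confidence interval within a log2 change of 1 in either direction, and 53 within 0.5, which is 1.41-fold. The 8 whose interval reached 0.5 included H2BC12, H2BC4 and H1-2. Standard errors ran from 0.0701 to 0.175 with a median of 0.0924. Replicate arrays differed over the histone genes with an SD of 0.161 for knockdown and 0.162 for mock, and over all probe sets with 0.165 and 0.160.

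**Figure D2:**
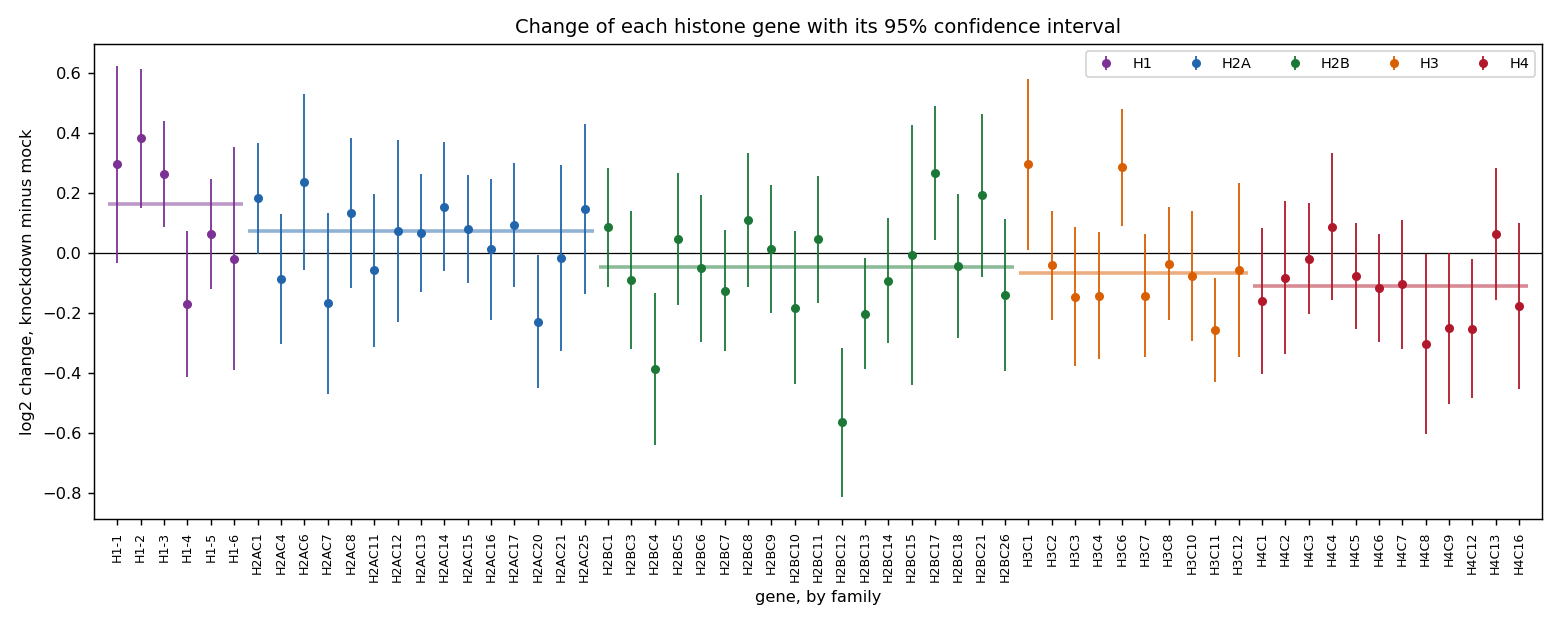
Log2 change, knockdown minus mock (vertical axis), of each histone gene (horizontal axis, by family), with bars for the 95% confidence interval from limma and a horizontal line at each family's median. H2BC12 has the lowest point, -0.56, and the family medians run from 0.16 for H1 to -0.11 for H4.

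H2BC12, which encodes an H2B that is also made from a polyadenylated mRNA, had the largest change of the set. Its log2 levels were 7.41 and 7.37 after knockdown against 8.08 and 7.84 in mock. Both knockdown arrays lay below both mock arrays. The log2 change was -0.56 (SE 0.1003, 95% interval -0.81 to -0.32), a ratio of 1.48 between mock and knockdown, with a limma adjusted p of 0.0978 that misses the threshold. The gene's second probe set, at levels of 4.71 and 4.57 against 4.56 and 4.39, had a change of 0.17 (adjusted p = 0.461), opposite in sign, and the mean over both probe sets was -0.20 (adjusted p = 0.312). Both probe sets are gene-specific by their suffix, and the mean level of the second lies below that of the highest Tag control.

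The promoter of H2BC12 is shown beside those of H2AC6, H1-2 and H4C9, because these 4 carry the contrasts described below: the most negative change, a member of an opposed pair, the most positive change, and the neighbour of H2BC12. The sequences are the 250 bases before the start of each gene, 5′ to 3′ in the direction of transcription, from RefSeq, build GRCh38.p14. H2BC12 lies at chr6:27146859-27147108 on the minus strand, H2AC6 at chr6:26123922-26124171 on the plus strand, H1-2 at chr6:26056471-26056720 on the minus strand and H4C9 at chr6:27139032-27139281 on the plus strand. Capitals mark matches on either strand to 4 motifs. The TATA box was searched as TATAAA and the CCAAT box by its name. The octamer known from H2B promoters was searched as ATTTGCAT, and the box known from H1 promoters as AAACACA.
H2BC12: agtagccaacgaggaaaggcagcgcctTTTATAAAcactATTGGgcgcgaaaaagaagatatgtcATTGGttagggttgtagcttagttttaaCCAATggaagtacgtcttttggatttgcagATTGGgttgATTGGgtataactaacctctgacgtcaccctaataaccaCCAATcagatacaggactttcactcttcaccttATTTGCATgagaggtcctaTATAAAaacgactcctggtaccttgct
H2AC6: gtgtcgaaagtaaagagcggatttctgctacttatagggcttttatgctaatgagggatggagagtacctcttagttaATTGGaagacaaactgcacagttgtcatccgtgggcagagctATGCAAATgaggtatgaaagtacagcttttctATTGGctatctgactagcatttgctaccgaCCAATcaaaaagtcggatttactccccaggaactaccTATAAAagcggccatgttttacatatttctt
H1-2: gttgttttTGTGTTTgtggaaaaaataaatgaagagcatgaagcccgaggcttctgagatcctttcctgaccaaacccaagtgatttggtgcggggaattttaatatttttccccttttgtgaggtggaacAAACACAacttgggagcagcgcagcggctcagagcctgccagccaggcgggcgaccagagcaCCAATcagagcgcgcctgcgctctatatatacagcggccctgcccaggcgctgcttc
H4C9: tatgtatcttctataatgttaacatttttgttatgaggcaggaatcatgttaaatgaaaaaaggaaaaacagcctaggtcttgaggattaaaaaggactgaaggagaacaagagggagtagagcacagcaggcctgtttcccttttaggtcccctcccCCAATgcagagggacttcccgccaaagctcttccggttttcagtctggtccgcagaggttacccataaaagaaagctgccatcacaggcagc
The H2BC12 stretch holds the octamer from 46 to 39 bases before the start and a TATA box from 27 to 22. That of H1-2 holds 2 copies of the H1 box, the nearer from 119 to 113 bases before the start, and a CCAAT from 57 to 53. In the H2AC6 stretch the octamer stands as its reverse complement, from 130 to 123, and a TATA box from 31 to 26. H4C9 has a single match, a CCAAT from 92 to 88.

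Promoter windows of 300 bases were matched for 56 of the 61 genes. The octamer stood in 14 of 18 H2B and 11 of 14 H2A windows, in 1 of 8 H3 windows and in 0 of the 6 H1 and 10 H4 windows, against 2.19% of 27305 genes with a window. The H1 box stood in 6 of 6 H1 windows and in 1 of the other 50 (H2A), against 6.94% of all. CCAAT stood in every H1, H2A, H2B and H3 window matched and in 3 of 10 H4 windows (39.7% of all), and TATAAA in 37 of 56 (13.99% of all). Matches on both strands were counted, and those in the member windows overlapped each other 5 times. The windows of 11 H2A and H2B pairs share 253 to 293 bases, so their matches can be the same bases counted again. The 1 H3 window with an octamer, that of H3C4, shares 278 bases with that of H2BC7. Among H2B genes the median log2 change was -0.05 over the 14 with an octamer match and -0.07 over the 4 without, and the difference was not tested. A match is a description of the letters and not a test of binding.

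The linker histones H1, which bind the DNA where it enters and leaves the nucleosome, had 4 of 6 changes positive and a median of 0.16. H1-2, a linker histone common in dividing cells, was at 6.02 and 5.94 after knockdown against 5.69 and 5.50 in mock. Both knockdown arrays were the higher. Its log2 change of 0.38 (SE 0.0932, limma adjusted p = 0.156) was the most positive of the 61, and its only probe set ends in _x_at, a suffix for probes that can match other sequences. H1-3 was at 4.99 and 4.96 against 4.72 and 4.70, again without overlap, with a change of 0.26 (adjusted p = 0.182) on an unshared probe set. H1-1 was at 4.27 and 4.58 against 4.23 and 4.03, separate by a narrow margin, with a change of 0.30 and knockdown replicates about as far apart as the groups (adjusted p = 0.353). H1-4 went the other way, at 4.95 and 4.72 against 4.99 and 5.02, with a change of -0.17 (adjusted p = 0.458). H1-5 had a change of 0.06 and H1-6, the testis form, of -0.02.

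The H2A genes, which pair with H2B at the outer faces of the nucleosome, had 10 of 15 changes positive and a median of 0.07. None was higher and 1 was lower at a nominal p under 0.05, against 9.76% and 7.25% of all genes. That gene was H2AC20, at 5.05 and 4.98 after knockdown against 5.33 and 5.15 in mock, with a change of -0.23 (limma adjusted p = 0.297) that its second, dimmer probe set did not show (-0.01). H2AC25, the brightest of the family, was at 6.89 and 6.88 against 6.89 and 6.59, with a change of 0.15. Mock array 2 alone stood apart, and without it the change was -0.00368. H2AC8 was at 5.65 and 5.85 against 5.55 and 5.68, with overlapping groups and a change of 0.13. H2AC11 was also bright within the family, with a change of -0.06 at its main probe set and 0.26 at the other. H2AC6 had the family's most positive change, 0.24 (adjusted p = 0.396), at 5.15 and 5.05 against 4.71 and 5.01. Its only probe set ends in _s_at. H2AC1, a testis form, had a change of 0.18 at levels below the highest Tag control.

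The H2B genes had 7 of 18 changes positive and a median of -0.05, with 1 higher and 3 lower at a nominal p under 0.05, where 9.76% and 7.25% of all genes were. Beside H2BC12, the most negative was H2BC4, at 3.04 and 3.27 after knockdown against 3.49 and 3.59 in mock. Its groups were separate and its second probe set also had a negative change (-0.39 and -0.28, limma adjusted p = 0.176 and 0.193), but both probe sets end in _x_at or _s_at and lie within the range of the Tag controls. H2BC13 had -0.20. H2BC17 had the most positive change, 0.27 (adjusted p = 0.246), at 3.68 and 3.67 against 3.31 and 3.50, again within the control range. H2BC5, another member with a polyadenylated form, was at 6.89 and 6.84 against 6.90 and 6.73, with a change of 0.05 (95% interval -0.17 to 0.27). Its other 2 probe sets had changes of 0.21 and -0.20. H2BC15 was at 5.64 and 6.15 against 5.82 and 5.98, the widest gap between replicates among the members named here, and a change of -0.01. Both probe sets of H2BC21 that had a positive change, 0.19, held identical values and so count as 1 measurement, while the remaining probe set had -0.18.

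The H3 genes, whose product forms the nucleosome core with H4, had 2 of 10 changes positive and a median of -0.07. The 2 positive ones were the family's largest. H3C1 was at 4.67 and 4.75 after knockdown against 4.56 and 4.27 in mock, with a change of 0.30 (limma adjusted p = 0.294) and 0.26 at its second probe set. H3C6 was at 4.28 in both knockdown arrays against 3.93 and 4.05, a change of 0.29 (adjusted p = 0.188). Both main probe sets end in _s_at, and their mean levels lie within the control range. H3C11 had the most negative change, -0.26 (adjusted p = 0.186), at 4.13 and 4.14 against 4.40 and 4.39. Its replicates differed by less than 0.01 and its groups were separate, but its probe set also lies within the control range. The brighter members had small changes. H3C8 was at 7.05 and 7.11 against 7.08 and 7.15 (change -0.04), and H3C12 at 6.20 and 5.91 against 6.05 and 6.18 (change -0.06). H3C4, whose gene model overlaps that of H2AC7, had a change of -0.14.

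The H4 genes, nearly all of which encode the same protein, had 10 of 12 changes negative and a median of -0.11, with 0 higher and 3 lower at a nominal p under 0.05 (9.76% and 7.25% of all genes). H4C12 was at 6.99 and 6.78 after knockdown against 7.13 and 7.14 in mock. Its change was -0.25 (limma adjusted p = 0.276) and that of its unshared probe set -0.21, both negative. H4C9 was at 5.76 and 5.73 against 5.87 and 6.11, with -0.25 (adjusted p = 0.307) and -0.32 at its other probe set. H4C8 was at 4.49 and 4.18 against 4.58 and 4.69, with -0.30 (adjusted p = 0.306). Its only probe set ends in _s_at, and its mean level lies within the range of the Tag controls. All 3 genes had separate groups, and in each the replicates of 1 group lay further apart than the nearest arrays of the 2 groups. H4C3, by far the brightest histone gene on the array, was at 13.32 and 13.38 against 13.34 and 13.39, so its groups overlapped and its interval ran from -0.20 to 0.17 around a change of -0.02. Both of its probe sets end in _x_at or _s_at. The 2 positive members, H4C4 and H4C13, were dim.

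Summarised by array, the families differed in sign. For each gene the mean over the 4 arrays was subtracted and the median over the family taken. H1 stood at 0.073 and 0.075 after knockdown against -0.073 and -0.108 in mock, and H2A at 0.024 and 0.050 against -0.044 and -0.014. H2B and H4 had the opposite order, H2B at 0.007 and -0.023 against 0.026 and 0.034, and H4 at -0.036 and -0.060 against 0.013 and 0.130. H3 overlapped, at -0.053 and 0.0041 against -0.0005 and 0.045. Over all 61 genes the arrays stood at -0.011 and -0.004 against -0.001 and 0.028, and over all genes of the array at 0.010 and -0.007 against -0.006 and 0.005. The 5 families shared arrays, normalization and in part probes, and the difference between them was not tested.

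Single arrays weighed on these medians. Without mock replicate 1 the H4 median was -0.189 and without mock replicate 2 it was -0.0588. The H2A median was 0.0314 without knockdown replicate 2. The H2B median was -0.0825 without mock replicate 1 and -0.0283 without knockdown replicate 2, and the H3 median was -0.0442 without mock replicate 2. The median over all 61 genes came to -0.0208 when knockdown replicate 2 was left out, to -0.0675 for mock replicate 1 and to -0.0261 for mock replicate 2. None of the 6 medians changed sign when an array was left out.

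**Figure D3:**
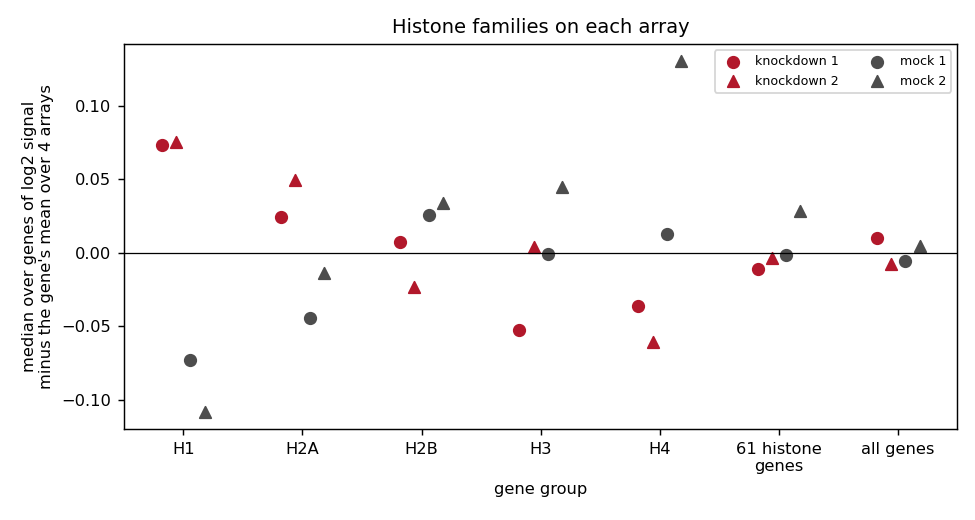
Median over the genes of each family (horizontal axis) of the log2 signal minus the gene's mean over 4 arrays (vertical axis), with 1 point per array, knockdown in red and mock in grey. The knockdown points of H1 (0.073 and 0.075) lie above its mock points, those of H4 (-0.036 and -0.060) below, and those of all genes are mixed.

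Members that lay above every Tag control gave the same signs. Over these 29 genes the median change was -0.05, with 10 positive and 19 negative. All 5 H3 and all 7 H4 genes among them had negative changes, with medians of -0.08 and -0.16. The H1 median was 0.26 over 3 genes, that of H2A 0.09 over 7 and that of H2B -0.01 over 7. Of these 7 H2B genes only H2BC12 had separate groups (14.3%, against 49.4% of all genes). Of these 29, 2 were higher and 4 lower at a nominal p under 0.05, beside 9.76% and 7.25% of all genes.

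Probe sets of the same gene often disagreed in sign. Of the 61 main probe sets, 26 end in _s_at or _x_at, and their median change was 0.02, while the 35 others had a median of -0.08. A further 43 probe sets belonged to 29 of the genes, and 24 of the 43 had a sign opposite to the main one. For 11 of the 29 genes all other probe sets had the sign of the main one, among them H4C5, H4C9, H4C12, H2BC4, H3C1 and H2BC26. These counts include probe sets that repeat a measurement. A probe set of H2BC21 had the same values as the main one, and the other probe set of H2BC26 had the same change as its main one (-0.1398). Without the suffixed probe sets 47 genes were left, with medians of 0.06 for H1 (5 genes), 0.03 for H2A, -0.02 for H2B, -0.08 for H3 and -0.10 for H4.

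**Figure D4:**
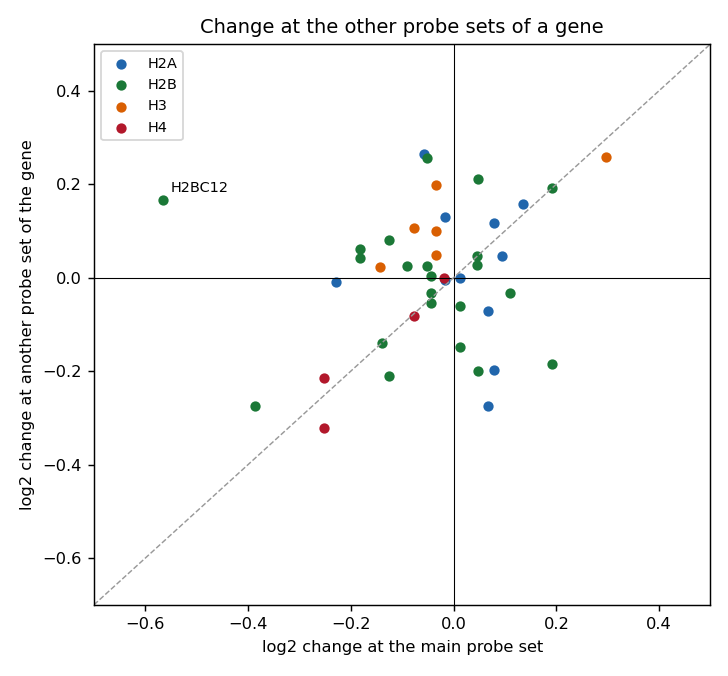
Log2 change at each of the 43 other probe sets (vertical axis) against the change at the main probe set of the same gene (horizontal axis), coloured by family, with a dashed line of equality; H1 genes have 1 probe set each. The points scatter around 0 in all quadrants, and H2BC12 lies at -0.56 and 0.17.

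In RefSeq 54 of the genes lie on chromosome 6, 6 on chromosome 1 and 1 (H4C16) on chromosome 12. The median change was -0.04 on chromosome 6 and -0.03 on chromosome 1, with 23 of 54 and 2 of 6 positive. Many H2A and H2B genes stand head to head and share the DNA between their starts. Such a shared promoter, with overlapping windows on opposite strands, was found for 12 pairs, 11 of them of H2A with H2B. Their changes had the same sign in 5 pairs and opposite signs in 7. The widest split was H2AC6 at 0.24 beside H2BC4 at -0.39. Their windows are the 2 strands of nearly the same stretch, printed above for H2AC6. The H2AC6 probe set ends in _s_at. The main one of H2BC4 ends in _x_at and lies within the range of the Tag controls. H2AC20 at -0.23 stood beside H2BC21 at 0.19, but another probe set of each had -0.01 and -0.18. H2BC7 took part in a pair with H2AC7 and one with H3C4. The closest were H2BC7 and H3C4 at -0.13 and -0.14 and H2AC8 and H2BC8 at 0.13 and 0.11. H4C9 lies within the gene model of H2BC12, on the other strand, and both had negative changes (-0.25 and -0.56).

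No gene on the list of replacement and variant histones, some of which enter chromatin outside S phase, passed the test either. Of 24 symbols listed 16 matched a gene with a probe set of its own. Symbols were matched as listed, so a gene listed under an earlier symbol was not counted among these. The 16 had 6 positive changes and a median of -0.05. In limma 0 passed the test (0.403% of all genes did). At a nominal p under 0.05 in limma 0 were higher and 1 was lower (9.76% and 7.25% of all genes). That one was H2AX, the variant phosphorylated at DNA breaks, at 11.41 and 11.41 after knockdown against 11.58 and 11.60 in mock. Its groups were separate and its replicates close, with a change of -0.18 (adjusted p = 0.297). H2AZ1, the variant of promoter nucleosomes, had a change of -0.08, its relative H2AZ2 of 0.02, H3-3B, which encodes H3.3, of -0.04, MACROH2A1 of -0.07, and CENPA, the H3 of centromeres, of 0.04. H2AJ had -0.23 with an adjusted p of 0.389. The single probe set paired with H3-3A alone had a level of 2.87, near the bottom of the array, so H3-3A is hardly measured here.

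Genes that transcribe histone genes and form the ends of their mRNA had a median of 0.02 over 32 measured, with 18 positive. In limma 0 passed (0.403% of all genes did), and 2 were higher and 2 lower at a nominal p under 0.05 (9.76% and 7.25% of all genes). LSM11, a protein of the U7 snRNP, was at 7.93 and 8.001 after knockdown against 7.56 and 7.34 in mock. The groups were separate, with a change of 0.51 (adjusted p = 0.110), and its other 2 probe sets had 0.50 and 0.29 (0.0748 and 0.191). ZNF473, which binds the U7 snRNP at the stem-loop complex, was at 7.21 and 7.28 against 7.51 and 7.47. Its change was -0.24 (0.220), and -0.41 at its second probe set (0.0944). SLBP had a change of -0.04, NPAT, the coactivator that switches on histone genes at the start of S phase, of 0.14, CASP8AP2 of -0.01 and LSM10, the partner of LSM11, of 0.08. The cap-binding cofactor SRRT had -0.21 and the kinase CDK2 0.18.

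Genes of histone mRNA decay had a median of -0.03 over 22 measured, with 10 positive and 0 past the limma test (0.403% of all genes). Of these 2 were higher and 2 lower at a nominal p under 0.05 in limma (9.76% and 7.25% of all genes). ERI1, the exonuclease that trims the stem-loop, had a change of 0.15 (adjusted p = 0.399). The exosome subunits EXOSC4 and EXOSC3 had -0.26 and -0.25, and the decapping factors DCP2 and PATL1 0.28 and 0.23. Histone chaperones and importers had a median of -0.03 over 30, with 12 positive and 0 past the limma test (0.403% of all genes). Of these 0 were higher and 4 lower at a nominal p under 0.05 in limma (9.76% and 7.25% of all genes). UBN1, a subunit of the HIRA complex that deposits H3.3, was at 8.33 and 8.30 after knockdown against 8.76 and 8.82 in mock. The groups stood well apart, with a change of -0.47 (adjusted p = 0.0774), and -0.21 at its other probe set (0.265). SUPT6H had -0.38, the importin IPO9 -0.32 and ASF1B, a chaperone of new H3 and H4, -0.26. All 3 probe sets of ASF1B had negative changes, from -0.36 to -0.23, whereas the others of IPO9 had changes of 0.06, 0.31 and -0.08.

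The list of S phase and proliferation genes was measured beside the histones because histone mRNA follows DNA replication. This list also holds CCND1 and the cell cycle inhibitors CDKN1A and CDKN1B, so it does not measure S phase alone. Its median was -0.02 over 35 genes, with 17 positive, 0 past the limma test, and 2 higher and 2 lower at a nominal p under 0.05. MCM3, a subunit of the replicative helicase, was at 10.16 and 10.11 after knockdown against 10.45 and 10.44 in mock, with a change of -0.31 (adjusted p = 0.146), and MCM5 had -0.27. The groups of MCM3 were separate, and its other 3 probe sets also had negative changes, from -0.29 to -0.23. Thymidylate synthase TYMS had 0.24 and DNA ligase LIG1 0.23. These lists were described by counts and medians alone, and over all genes 9.76% were higher and 7.25% lower at that p.

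**Figure D5:**
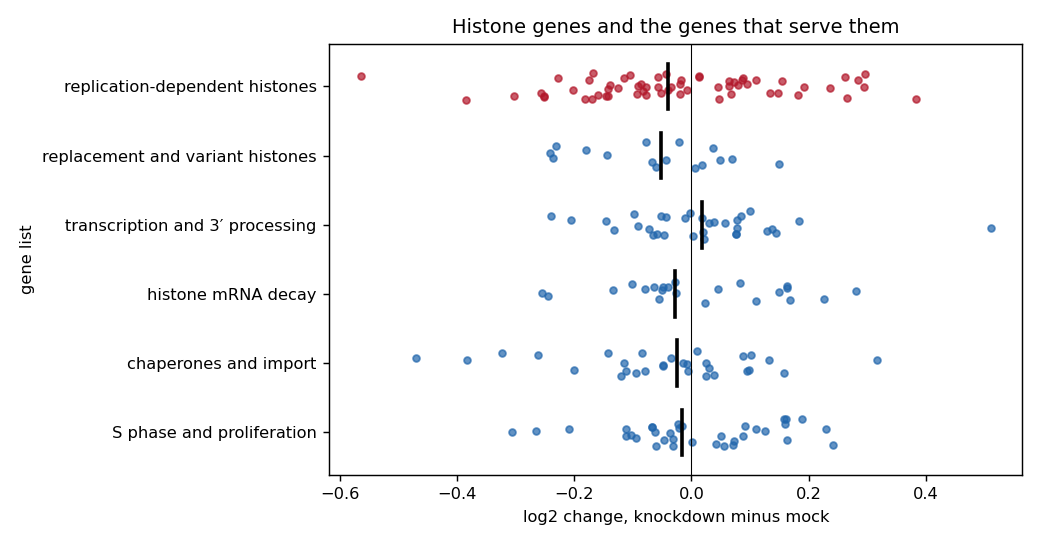
Log2 change, knockdown minus mock (horizontal axis), of each gene in 6 groups (vertical axis): the 61 histone genes in red and 5 lists of related genes in blue, with a black bar at each median. All medians lie between -0.05 and 0.02, and LSM11 (0.51), UBN1 (-0.47) and H2BC12 (-0.56) are the outermost points.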

How the data were processed

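The authors deposited a matrix of log2 signals, with probe sets in rows and arrays in columns. RMA and Partek are named in the submitters' processing notes, with no version or role. The log2 scale was read from the naming of RMA and the range of the values. The build behind the probe sets is not given in the sources used here. Of 49372 probe sets, 79 controls were set aside and 49293 tested, and 44988 of these were paired with 1 gene by the platform's annotation. Knockdown was compared with mock by limma 3.58.1 (lmFit and eBayes, R 4.3.3), two-sided, without pairing, with Benjamini-Hochberg adjustment over the 49293 probe sets and a threshold of 0.05. All adjusted p-values are from this fit unless another setting is named, and 95% intervals are those of the moderated fit, on 2 residual and 3.62 prior degrees of freedom. The procedure was tested on simulated data. RefSeq tables of GRCh38.p14 gave neighbours and promoters.

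Named genes were those past the test, the 3 brightest and the 3 with the smallest p in each family, the extremes, and in other lists up to 4 with the smallest p. A few others (probe sets that disagree, neighbours, H2BC13, H2BC21, H4C4, H4C13 and the like) were named after their values were seen. The members and lists were chosen with earlier results of these data known. The Tag controls were used as a mark of background after the data were seen.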

Additional observations from a re-analysis of the deposited data

How the results depend on the processing

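The median changes kept their sign for the 61 histone genes and each of the 5 families in every setting tried. The count of histone genes past the limma test was 0 in all settings except the prior variance that follows the signal, where it was 1 (H2BC12, adjusted p = 0.00726, against 0.0552 to 0.521 over the other settings). The count of probe sets past the test over the array, 156 (74 higher, 82 lower), moved most: 671 with arrays centred on their medians (403 higher, 268 lower), 487 when dim probe sets were filtered out (276 higher, 211 lower), 297 after quantile normalization, 3209 with that prior variance (1928 higher, 1281 lower), 23 without probe sets ending in _s_at or _x_at (7 higher, 16 lower), and 0 without any 1 array (range 0 to 0).

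The arrays' replicate numbers are shared between groups, but the deviations of same-numbered arrays correlated at -0.202, so the numbers were not taken as pairs. With the replicate block 0 probe sets passed and ARID1A kept a change of -1.78 (adjusted p = 0.217). With crossed numbers, a replicate block chosen after seeing the data, 0 passed and ARID1A was at -1.78 (0.187). No histone call changed under either. Leaving out 1 array put ARID1A at -1.80 to -1.75, also not past the test (adjusted p = 0.244 to 0.521), with 1 residual degree of freedom and a lone array assumed to vary like the others, so this setting says little about other calls.

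Some medians moved by more than the spread between replicates, and the cause was not tested. For all 61 genes the median was -0.0576 with the dim filter (43 genes), -0.0196 with the mean over a gene's probe sets, -0.0576 without suffixed probe sets (47 genes) and -0.0675 to -0.0208 with 1 array left out. For H1 it was 0.181 after quantile normalization, 0.0634 without suffixed probe sets, 0.263 over members above the Tag controls and 0.120 to 0.190 with 1 array left out. For H2A it was 0.0944, 0.0297, 0.0942 and 0.0314 to 0.0782 in the same settings. For H2B it was -0.0287 with the mean over probe sets, -0.0152 without suffixed ones, -0.00751 above the Tag controls and -0.0825 to -0.0283 with 1 array left out. For H3 it was -0.109 with the dim filter and -0.0921 to -0.0442 with 1 array left out, and for H4 -0.189 to -0.0588.

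Of the 25 named histone genes 18 kept their sign throughout, among them H2BC12, H1-2, H1-3, H3C11 and H4C12. The 7 others had changes from -0.06 (H2AC11 and H3C12) to 0.15 (H2AC25) in the main fit. H3C8 was at 0.197 without suffixed probe sets and 0.0776 with the mean over probe sets, and H2AC11 at 0.103 with that mean. With 1 array left out, H2AC11 ranged from -0.179 to 0.0638, H2BC15 from -0.263 to 0.248, H4C3 from -0.0506 to 0.0126, H3C12 from -0.200 to 0.0845, H2AC25 from -0.00368 to 0.298 and H2BC5 from -0.0385 to 0.133. ARID1A was at -1.07 with the mean over its probe sets. Weak signal is a limit for the 32 of the 61 genes that did not exceed the controls, and 2 arrays per group limit all of them.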
